A study of Mus musculus with 12 samples.

Results

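The neuropeptide transcripts described here are those of Npy, Gal and Tac1 in mouse dorsal root ganglia, the clusters of sensory nerve cell bodies beside the spinal cord. They were chosen by transcript ID as 3 of the 101744 Ensembl transcripts in the deposited table: ENSMUST00000031843 for Npy, ENSMUST00000025842 for Gal and ENSMUST00000090679 for Tac1. All 3 IDs were in the table, and each was detected in 1 or more samples. The table carries no gene names and the gene tables used here hold no transcript IDs, so these names came with the IDs and were not checked against an annotation. Each value below is that of 1 transcript, not of a gene, since other transcripts of the same genes could not be recognised and were not analysed here.

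All mice had the genotype RPL22HA+/+;Advillin-Cre+. In this RiboTag design Cre recombinase under the Advillin promoter, active mainly in peripheral sensory neurons, switches on a ribosomal protein with an HA tag, and an anti-HA antibody pulls down tagged ribosomes with their RNA. The labels give 12 samples, 3 each of immunoprecipitate (IP) from injured mice, IP from uninjured mice, input from injured mice and input from uninjured mice, where the injury is to the sciatic nerve. Advillin-Cre marks sensory neurons of all kinds, so the IP pools neurons with and without a given peptide, and with and without an injured axon. The labels call the input total RNA, while the extraction text given for it describes the pulldown. The age and sex of the mice, the time after injury, and any pooling of animals are not stated in the labels used here. Marker genes of sensory neurons, glia and other cells could not be looked up, for want of gene names, so the labelled cell type was not checked.

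Sensory neurons signal with small peptides as well as with fast transmitters, and they cut these peptides from larger precursors and store them in dense core vesicles. Tac1 encodes the precursor of substance P and neurokinin A, which small pain-sensing neurons release to excite spinal cord neurons and to dilate blood vessels. Gal encodes the precursor of galanin and Npy that of neuropeptide Y, both of which act through G protein-coupled receptors that mostly restrain transmitter release. In intact rodent ganglia substance P is common, while galanin is sparse and neuropeptide Y nearly absent. Cutting the peripheral axon is a classic trigger of a switch, in which galanin comes up, neuropeptide Y comes up mainly in large neurons, and substance P goes down in small neurons.

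The samples of a group were nearly equal in depth, with totals of 190594 to 190702 estimated counts in injured IP, 211497 to 212449 in uninjured IP, 1584104 to 1585381 in injured input and 1685126 to 1685756 in uninjured input. Among transcripts with a mean of at least 300 counts, the median spread between the samples of a group was 0.945 to 1.41 times counting noise. With 30 to 300 counts, the range that holds Gal in injured input and Npy in uninjured input, it was 1.18 to 1.53 times. The samples were not alike in every transcript, since 17.8% to 18.4% of the input transcripts in these ranges and 7.5% to 12.97% of the IP transcripts had a chi-square p under 0.05. Because of the nearly equal totals the 3 samples were summed and each group was counted as 1 sample, which the labels do not state. The intervals below therefore cover counting error only. Fits that take the 3 as replicates, as the labels list them, were run as alternatives, and Npy and Gal passed edgeR's quasi-likelihood test for injury in input there (adjusted p = 1.74e-06 and 0.000789), as did Npy for injury in IP (adjusted p = 0.000493). The summed totals were 571897 counts in injured IP, 635927 in uninjured IP, 4753793 in injured input and 5055830 in uninjured input. The much lower depth of the IP limits what can be seen there. A count of 0 over the 3 samples was set to a floor of 3 counts, which is 2.88 CPM in injured IP and 2.75 CPM in uninjured IP. In the input this floor is 1.13 CPM with injury and 1.03 CPM without. The upper 95% counting limit of 0 counts is somewhat higher than the floor, at 3.54 CPM in injured IP and 3.38 CPM in uninjured IP. CPM here is the field's usual scaled count, taken over the library total times its TMM factor. This scaling aims to make the bulk of transcripts comparable between groups. Between IP and input it did not centre them, as the median log2 ratio was still -0.64 with injury and -0.59 without. Ratios of IP to input therefore depend on the scaling and are given below with library totals alone as well.

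The stretches of genome before the annotated starts of Npy and Gal are shown because these were the transcripts whose counts rose together in the input. No activity of these stretches was measured in this study. They are the 250 bases before the start of each gene in RefSeq's table for GRCm38.p6, matched by symbol, for Npy at chr6:49822460-49822709 on the plus strand and for Gal at chr19:3414545-3414794 on the minus strand. The submitters' processing notes name GRCm39, so these positions are in another build than the one named for the counts. Capitals mark matches on either strand to any of the motifs searched, of which a GC box (GGGCGG) and a CCAAT box (CCAAT, or ATTGG on the other strand) occurred.
Npy: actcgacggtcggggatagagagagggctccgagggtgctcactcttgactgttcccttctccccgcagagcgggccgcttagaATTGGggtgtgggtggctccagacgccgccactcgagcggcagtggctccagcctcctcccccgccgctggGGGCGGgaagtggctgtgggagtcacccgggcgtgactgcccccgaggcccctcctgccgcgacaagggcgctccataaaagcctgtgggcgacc
Gal: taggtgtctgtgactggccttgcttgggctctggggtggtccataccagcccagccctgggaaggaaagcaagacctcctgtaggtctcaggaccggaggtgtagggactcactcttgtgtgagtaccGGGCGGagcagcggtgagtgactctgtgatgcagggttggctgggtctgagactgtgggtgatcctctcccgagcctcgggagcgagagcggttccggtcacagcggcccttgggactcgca
The Npy stretch held a CCAAT match that began 166 bases before the start and a GC box match that began 95 bases before it. The Gal stretch held a GC box match that began 122 bases before the start. These letters are common, since 32.7% of the 32851 stretches of this length in the table held a GC box and 33.8% a CCAAT box. Neither stretch held the AP-1 letters TGANTCA (6.75% of all), the cAMP response element TGACGTCA (1.55%) or its half-site TGACG (17.8%), the STAT letters TTCNNNGAA (7.02%), the TATA letters TATAAA (12.4%) or an E-box CANNTG (66.2%). The TGACG letters also lie within TGACGTCA, and both strands were searched. The Tac1 stretch held TGACG on the other strand at 197 and at 43 bases before the start, as well as a GC box, a CCAAT box and a pair of E-box matches. A match in these letters is a description of the sequence and not a site of binding.

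Whether the peptides switched with nerve injury was asked first in the input. Npy was far higher in injured input and Gal was also higher there, while Tac1 was too low to compare. Both rises were among the highest injury ratios of the table.

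Npy had 1854, 1831 and 1900.3 estimated counts in the injured input samples, against 80.01, 69.1 and 65.0 in the uninjured input samples. The groups lay far apart, and the samples within each agreed within counting noise (chi-square p = 0.501 with injury and 0.432 without). The sums of 5585 and 214 counts gave 2109 CPM in injured input (95% counting interval 2054 to 2165) and 73.6 CPM in uninjured input (64.1 to 84.2). Npy was thus 28.6-fold higher after injury (95% counting interval 24.98 to 33.0), a log2 ratio of 4.84. Of 9139 transcripts compared for injury in the input, 40 had a higher ratio, with groups at 0 set to the floor.

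Gal had 75.1, 93.9 and 67.6 estimated counts in the injured input samples, against 6.002, 6.03 and 9.54 in the uninjured input samples. Again no sample of one group reached the other, and the samples within a group agreed within counting noise (chi-square p = 0.0995 with injury and 0.563 without). The sums of 237 and 22 counts gave 89.5 CPM in injured input (78.5 to 102) and 7.57 CPM in uninjured input (4.74 to 11.5). Gal was 11.8-fold higher after injury (7.63 to 19.2), a log2 ratio of 3.56, and 128 of the compared transcripts had a higher ratio. The uninjured level rests on 22 counts, which sets the width of this interval.

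Tac1 had 0 counts in each injured input sample, against 0, 4.68 and 0 in the uninjured input samples. The one sample with counts stood apart from the other two of its group beyond counting noise (chi-square p = 0.00930). The summed 5 counts came to 1.72 CPM in uninjured input (0.559 to 4.02), below the 10 CPM needed to compare a transcript. No direction can be given for Tac1 at this depth: the ratio of injured to uninjured input has an upper 95% counting limit of 1.20, which is above 1, and no lower limit. The fall of substance P described for nerve injury could not be looked for with this transcript, which was nearly absent from uninjured ganglia as well. In uninjured input Npy was the highest of the 3 transcripts at 73.6 CPM, with Gal at 7.57 CPM. This is not the order described above for intact ganglia. That order is of peptides, while these values are of RNA from 1 transcript per gene.

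A call, higher or lower, needed a ratio of 2-fold or more. Its counting interval also had to leave out 1, with no overlap between the samples of the groups. As each group was counted as 1 sample, a lack of overlap here is not evidence from replicates. By this rule 2 of the 3 transcripts were called higher after injury in the input and 1 could not be compared, where 9.07% of all 9139 compared transcripts were called higher. The median log2 ratio over all compared transcripts was -0.12, and 54.9% of all called transcripts were called higher. Scaling of the input groups alone moved these to 0.0041 and 71.9%, with Npy at 4.95 and Gal at 3.68. The rise of Npy exceeded that of Gal. Within the same libraries, where scaling cancels, the injury ratio of Npy was 2.42 times that of Gal (exact conditional 95% interval 1.46 to 3.85). Without the third uninjured input sample, which held the most Gal counts of its group, this value was 1.90 (0.945 to 3.48) and no longer differed from 1 beyond counting error. Since the ganglion holds many cell types, a change in the input cannot tell more RNA per cell from more cells that make the peptide.

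**Figure D1:**
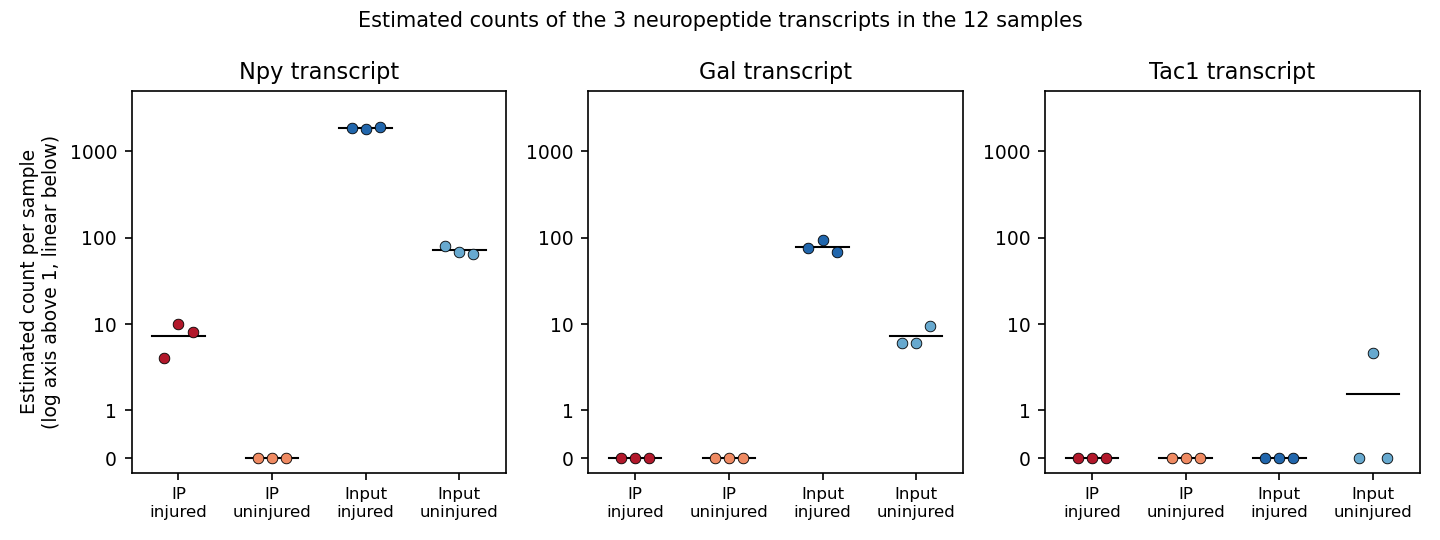
Estimated counts of the Npy, Gal and Tac1 transcripts in each of the 12 samples, with 1 point per sample and a bar at the mean of the 3 samples of a group, on a vertical axis that is logarithmic above 1 and linear below. Npy is at 1831 or above in every injured input sample and at 80.01 or below in every uninjured one, Gal shows the same order at lower counts, and IP counts are 0 apart from Npy in injured IP.

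The same question was then put to the IP, the pulldown of tagged ribosomes. Npy was the only one of the 3 transcripts detected in the IP, and only after injury. Its 22 counts there stood against 5585 in injured input. At the same ratio of IP to input, 0.803 counts would have stood in uninjured IP. Whether the 22 counts were RNA on tagged ribosomes of neurons was not tested. Gal and Tac1 had 0 counts in all 6 IP samples.

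Npy had 4, 10 and 8 counts in the injured IP samples, against 0, 0 and 0 in the uninjured IP samples. Every injured sample thus lay above every uninjured one, at low counts whose spread was within counting noise (chi-square p = 0.280). The sum of 22 counts gave 21.1 CPM in injured IP (95% counting interval 13.2 to 32.0), against a floor of 2.75 CPM in uninjured IP. Npy was 7.67-fold higher in injured IP when the uninjured group was set to the floor of 3 counts, which is not a bound. The lower 95% counting limit of the ratio against the 0 counts was 5.73, and no upper limit can be given. Of the 3 transcripts, 1 was compared and called higher, where 11.8% of the 8041 transcripts compared for injury in IP were called higher.

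The injury ratio of Npy in IP could not be told apart from that in input. Computed over the 4 sums, the ratio in IP divided by the ratio in input had a lower 95% limit of 0.198 and no upper limit, which spans 1. None of the 3 transcripts had the 10 counts in all 4 groups that the comparison of injury effects between the fractions required. The 0 counts of Gal have upper 95% counting limits of 3.54 CPM in injured IP and 3.38 CPM in uninjured IP. No ratio between these groups can be given for Gal.

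**Figure D2:**
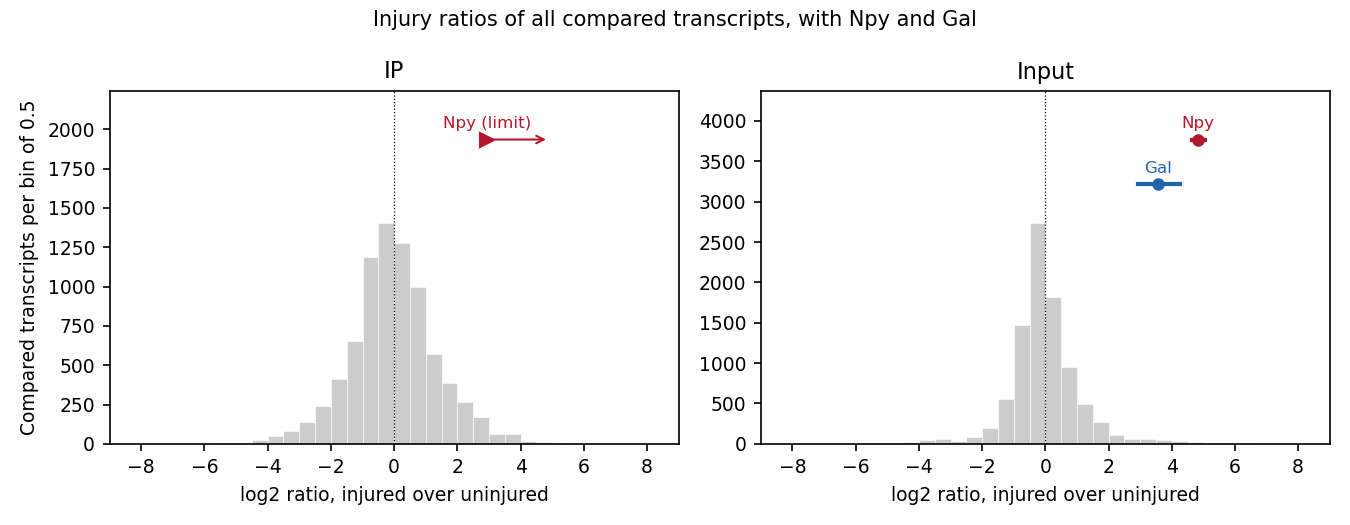
Log2 ratio of injured over uninjured, in IP on the left and in input on the right, with the number of compared transcripts per bin of 0.5 as grey bars (transcripts with 0 counts in 1 group are computed against the floor of 3 counts). Points with lines are members with their 95% counting interval, and the height of the marks has no meaning. The triangle with an arrow, marked as a limit, is a ratio against the floor and not a bound. The lower 95% counting limit of that ratio was 5.73-fold. Npy and Gal lie in the right tail of the input at 4.84 and 3.56, and the ratio of Npy in IP against the floor lies at 2.94.

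How the pulldown held these transcripts relative to the input was compared in each condition. Npy was much lower in IP than in input with injury and without it, and Gal was lower in IP with injury.

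In injured ganglia the 22 counts of Npy in IP stood against 5585 in input. Had Npy taken the same share of the IP total as of the input total, 672 counts would have stood in the IP. Npy was 99.9-fold lower in IP (95% counting interval 65.9 to 160) after TMM scaling, with 21.1 CPM in IP and 2109 CPM in input. With library totals alone it was 30.5-fold lower. Of the 9718 compared transcripts, 143 had a lower ratio of IP to input.

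Gal had 0 counts in injured IP and 237 in injured input, where an equal share of the totals would have put 28.5 counts in the IP. Against the floor of 3 counts it was 31.1-fold lower in IP after TMM scaling and 9.50-fold lower with library totals alone. The 95% counting limit after TMM scaling was 25.1-fold lower. At the ratio of IP to input that Npy showed, Gal would have had 0.934 counts in the injured IP. The ratio of Gal divided by that of Npy had an upper 95% limit of 4.33 and no lower limit, so the 0 counts cannot tell whether Gal was held differently from Npy.

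In uninjured ganglia Npy had 0 counts in IP and 214 in input, where an equal share would have given 26.9. Against the floor of 3 counts it was 26.8-fold lower in IP with TMM scaling and 8.97-fold lower with library totals alone. The 95% counting limit with TMM scaling was 21.6-fold lower. At the ratio of injured ganglia 0.803 counts would have stood in the uninjured IP, so its 0 counts are within counting error of an unchanged ratio. Gal had 0 counts in uninjured IP and 22 in uninjured input, where an equal share would have given 2.77 counts, and at 7.57 CPM it was below the minimum to compare. Tac1, with 0 counts in IP and 5 in input, was not compared either.

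In injured ganglia 2 of the 3 transcripts were thus called lower in IP, where 39% of all compared transcripts were called lower. In uninjured ganglia 1 of the 3 was called lower, where 39.8% were. Being lower in IP than in input was common in this table, with a median log2 ratio of -0.64 in injured and -0.59 in uninjured ganglia. With library totals alone the medians were 1.79 and 1.67, and the share called lower was 17.3% in injured and 21.1% in uninjured ganglia. Of all called transcripts, 30.3% were higher in IP in injured and 32.9% in uninjured ganglia with TMM scaling, and 73.7% and 68.4% with library totals alone. Npy in injured ganglia, at -6.64 with TMM scaling and -4.93 with library totals, lay below 9574 and 10424 transcripts.

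**Figure D3:**
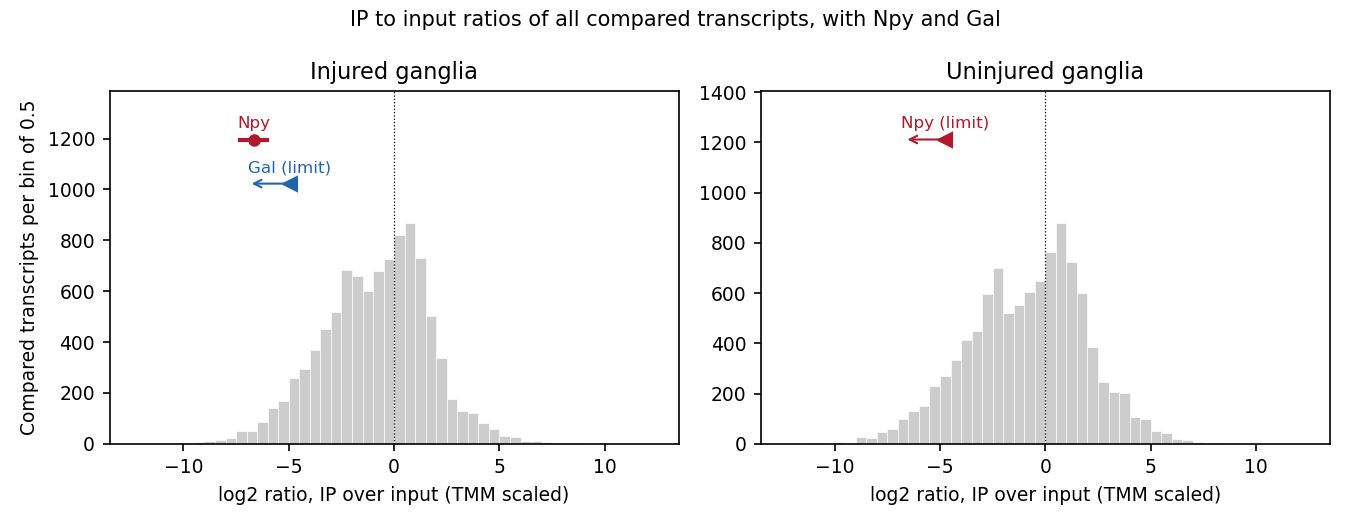
Log2 ratio of IP over input after TMM scaling, in injured ganglia on the left and in uninjured ganglia on the right, with the number of compared transcripts per bin of 0.5 as grey bars (0 counts in 1 group are computed against the floor of 3 counts). Points with lines are members with their 95% counting interval, and the height of the marks has no meaning. Triangles with arrows, marked as limits, are ratios against the floor and not bounds. The 95% counting limits were 25.1-fold lower for Gal in injured and 21.6-fold lower for Npy in uninjured ganglia. Npy in injured ganglia lies at -6.64. The ratios against the floor for Gal in injured and Npy in uninjured ganglia lie at -4.96 and -4.74.

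The transcripts whose pattern over the 4 groups was most like that of Npy and of Gal were found by the Euclidean distance between log2 CPM values, with 1 count added and centred on the mean of the groups, among 13085 other transcripts with at least 30 counts. For Npy it was ENSMUST00000237521.2, at a distance of 1.09, with 121 counts in injured IP, 5 in uninjured IP, 15702 in injured input and 545 in uninjured input. For Gal it was ENSMUST00000132185.2, at a distance of 0.384, with 1 count each in injured and uninjured IP, 434 in injured input and 59 in uninjured input. With 5 counts added in place of 1, the closest to Gal was ENSMUST00000187183.7. Neither the files nor the tables used here give these IDs a gene. Npy and Gal themselves lay 3.71 apart, so that 132 transcripts were closer to Npy than Gal was, and 3155 were closer to Gal than Npy was. The likeness rests on 4 groups, and a group at 0 counts enters it through the added count and the centring. Npy and Gal are thus set apart even in uninjured IP, where both had 0 counts. With 5 counts added they lay 3.26 apart, with 217 transcripts closer to Npy and 4825 closer to Gal. This distance is therefore no measure of a difference between them in IP. No pattern was sought for Tac1, which had 5 counts in all.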

How the data were processed

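Libraries of 12 samples in 4 groups of 3 were made with a nanopore cDNA-PCR barcoding kit, per the labels' protocols. The values the authors deposited are estimated counts, 1 row per transcript and not normalized. The submitters' processing notes name minimap2, Salmon and the builds GRCm39 and mm39, without roles, versions or settings. The labels do not say that samples came from separate animals, so adjusted p-values of the alternative fits measure only the spread between these samples.

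The members, lists and tests were chosen with earlier results of these data known. Lists of other peptides, receptors, processing enzymes and cell type markers were not used, because no transcript ID could be paired with a gene. Estimated counts were summed per group and rounded to whole numbers. TMM factors (edgeR 4.0.16, R 4.3.3) came from the 9959 transcripts that passed filterByExpr, of which 2 were members, and library sizes from all transcripts. Only transcripts at 10 CPM or more in the higher group were compared. Ratios have exact conditional (Clopper-Pearson) 95% intervals, which hold counting error alone, as amplified reads with no molecular identifiers do not each stand for a molecule. A group at 0 was set to 3 counts. Alternatives were other scalings, no filter, each sample left out, and edgeR's quasi-likelihood test and DESeq2 1.42.0 with Benjamini-Hochberg adjustment. Named are the 3 members and the transcript with the pattern most like that of Npy and of Gal.

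To see whether equal replicate numbers mark pairs, each sample's deviation from its group mean was correlated across groups. For uninjured IP against input, equal numbers gave r of 0.229, 0.212 and 0.150 over 621 transcripts, and unlike numbers gave -0.217 to 0.060. For injury in input, however, unlike numbers reached 0.498, so correlations of this size do not mark pairs by themselves. The ratios of summed counts use no pairs. The edgeR fit with the replicate block applied the replicate numbers to all samples and so to every comparison, and the labels do not state pairs.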

Additional observations from a re-analysis of the deposited data

How the results depend on the processing

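The alternatives covered the scaling, the filter, the single samples and the spread between the samples of a group, which the labels do not tie to animals. Npy and Gal kept their direction and their call in each comparison in which they were compared, under 5 other scalings and filters, with each sample left out in turn, and in the edgeR and DESeq2 fits that took the samples as replicates. For injury in input the log2 ratio was 4.76 to 4.98 for Npy and 3.36 to 3.92 for Gal with 1 sample left out. For IP against input in injured ganglia it was -6.98 to -6.38 for Npy. Against the floor it was 2.38 to 3.20 for Npy in IP, and -4.99 to -4.41 for Gal in injured IP against input. In uninjured IP against input it was -4.74 to -4.21 for Npy and -1.54 to -0.93 for Gal, also against the floor. The floor stayed at 3 counts when a sample was left out. Leaving out a sample of a group at 0 thus shifted these values through the floor and scaling alone, which does not test that sample. DESeq2 and edgeR without the block gave larger sizes where a group was at 0. The log2 ratio of Npy for injury in IP was 5.44 and 6.76 there, against 2.94 with the floor. For Gal in injured IP against input it was -7.38 and -8.85, against -4.96. For Npy in uninjured IP against input it was -7.19 and -8.57, against -4.74. The injury ratio of Npy over that of Gal was 1.90 to 2.81. Gal in uninjured IP against input, not compared in the report, had a log2 ratio of -1.46 against the floor, which turned to 0.12 with library totals alone. It was called lower at -1.51 with no filter, at -3.90 in DESeq2, and in edgeR at -5.32, or -5.31 with the replicate block, where fitted values against 0 counts are no bound. With the samples as replicates and the replicate block, edgeR gave injury in input a log2 change of 4.84 (adjusted p = 0.000144) for Npy and 3.54 (adjusted p = 0.0131) for Gal. For Npy in IP, edgeR's adjusted p with the block was 0.00455.

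Over all transcripts, 1510 were called for injury in input, against 2358 with no filter, 905 in edgeR and 614 with the replicate block, and 1719 to 1818 with 1 sample left out. For injury in IP 1798 were called, against 911 with the replicate block. The injury effect differed between IP and input for 999 transcripts, against 451 in edgeR and 310 with the replicate block. The other 69 of 75 counts lay within 1.5 times the reported ones. In the other comparisons than uninjured IP against input, at least 1 same-numbered pair had r below 0.1, and the block adds nothing known to be shared there.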
